A study of Mus musculus with 2 samples.

Results

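The lamins and nuclear envelope proteins described here are the products of 7 genes, Lmna, Lmnb1, Lmnb2, Lbr, Emd, Sun1 and Sun2. Their members are all 15 probe sets that the platform annotation assigns to exactly 1 of these symbols, out of 45101 probe sets on each array, a rule that uses no measured value, although the genes were picked with earlier results of these data known. The wild-type-labelled array holds RNA of a C57BL/6 embryonic stem cell culture with genotype MOF +/+, and the null-labelled array holds RNA of a C57BL/6 culture with genotype MOF-/-. Mof, the product of Kat8, acetylates histone H4. Both lines were derived from embryos at day 3.5 post coitum and used between passages 15 and 18. Both were kept on mouse embryonic fibroblast feeder cells with LIF and then passaged 2 times without feeders. The labels do not say how the null allele was made or whether either line is a clone. There was 1 array per genotype, so the differences below carry no replicate error and no test, and a gene or probe set was counted by a fixed rule of size, a difference of at least 2-fold (1 on the log2 scale).

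The nuclear lamina is a meshwork of intermediate filament proteins under the inner nuclear membrane. B-type lamins, from Lmnb1 and Lmnb2, are made in nearly all cells, including embryonic stem cells. A-type lamins, the spliced products lamin A and lamin C of Lmna, are scarce in embryonic stem cells and abundant in differentiated cells, above all in mesenchymal cells such as fibroblasts. The lamin B receptor Lbr and the A-type lamins both hold heterochromatin at the nuclear edge, emerin (Emd) is an inner membrane protein of the LEM domain family, and Sun1 and Sun2 join the lamina to the cytoskeleton through nesprins.

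Values ran from 2.77 to 14.6 on the wild-type-labelled array and from 2.85 to 14.7 on the null-labelled array, with medians of 6.02 and 6.01. The brightest probe set of Kat8 had values of 8.06 and 8.37, so on that probe set its transcript was not lower on the null-labelled array. The labels do not say whether that probe set lies inside a deleted part, so every direction below depends on the labels. Of 12015 expressed genes, 17.0% differed by at least 2-fold, with 5.09% higher and 11.9% lower on the null-labelled array. A gene is called expressed when the higher value of its brightest probe set reached 6.02, the median of all values. Over all expressed genes the median difference, null minus wild type, was 0.10 log2 units, and 56.7% of them were higher. The pooled SD between differences of expressed probe sets of the same gene was 0.33 log2 units over 5362 genes, and it holds no variation between cultures.

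The A-type lamin gene stood apart from the other lamina genes. Lmna was 2.91-fold lower on the null-labelled array, while the B-type lamin genes Lmnb1 and Lmnb2 were 1.63-fold and 1.80-fold higher and the receptor gene Lbr was 2.09-fold higher. By brightest probe set, 5 of the 7 genes were higher and 2 lower, where 56.7% of all expressed genes were higher. In each direction 1 passed 2-fold, beside 5.09% and 11.9% of all expressed genes. All 7 genes were expressed, as were 13 of the 15 probe sets. Among the expressed probe sets 8 were higher and 5 lower, with 2 and 3 past 2-fold (over all 20935 expressed probe sets 15.6% passed it, 4.49% higher and 11.1% lower). Of these 13 probe sets, 1426868_x_at of Lmna passed the level filter through the wild-type-labelled array alone and 1451849_a_at of Lmnb2 through the null-labelled array alone, so the filter favours their direction. Over the 11 that met it on both arrays 7 were higher and 4 lower, with 1 and 3 past 2-fold.

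**Figure D1:**
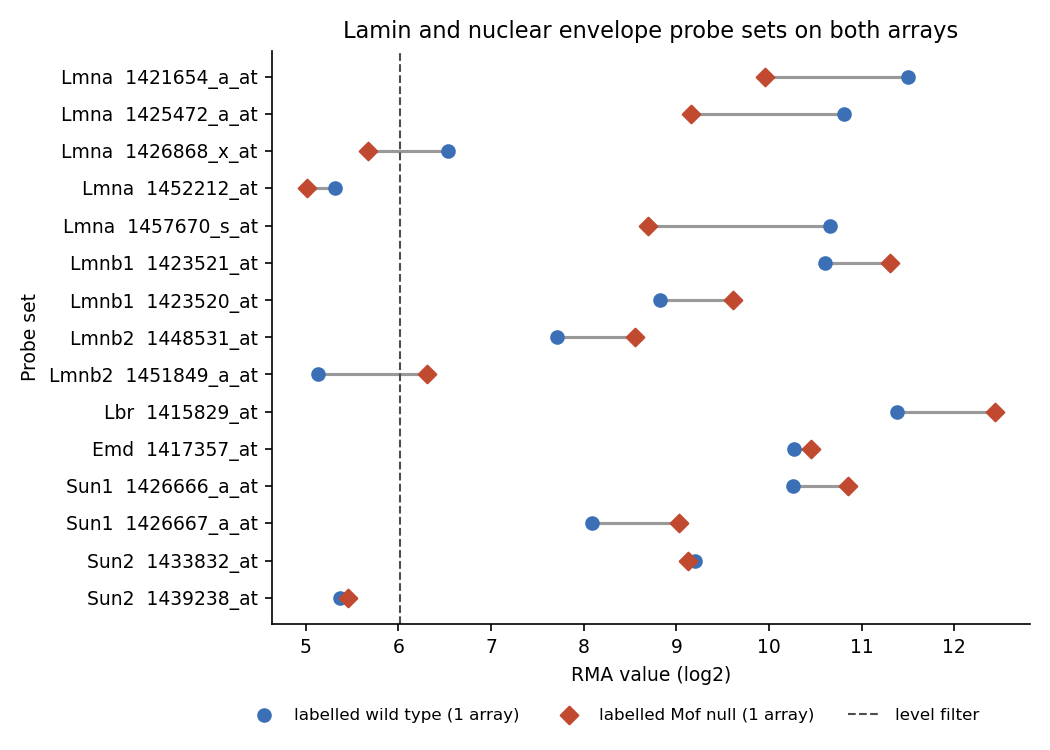
RMA values (log2) of the 15 member probe sets, with a circle for the wild-type-labelled array, a diamond for the null-labelled array and a dashed line at the level filter of 6.02. All 5 Lmna probe sets had the diamond to the left, and all probe sets of Lmnb1, Lmnb2, Lbr, Emd and Sun1 had it to the right.

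Lmna (Entrez gene 16905) was read by 5 probe sets, more than any other member. On the brightest, 1421654_a_at, the value was 11.50 on the wild-type-labelled array and 9.95 on the null-labelled array, a difference of -1.54 log2 units. On 1425472_a_at the values were 10.81 and 9.16, a difference of -1.65. On 1457670_s_at they were 10.66 and 8.69, a difference of -1.96 or 3.90-fold, the largest of the 15. The 3 bright probe sets therefore each showed Lmna past 2-fold, and each was still above the level filter on the null-labelled array.

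The remaining Lmna probe sets lay near or below the filter and had smaller differences, and the cause of that was not tested. On 1426868_x_at the values were 6.54 and 5.67, a difference of -0.87 log2 units. On 1452212_at they were 5.31 and 5.01, both below the filter, a difference of -0.30. The direction was thus the same on all 5 probe sets, while its size spanned 1.23-fold to 3.90-fold. The annotation does not say which probe sets read lamin A, lamin C or both. Among the 12015 expressed genes, 763 (6.35%) were as far below 0 as Lmna or farther.

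In bulk RNA, fewer cells of a type and less RNA per cell cannot be told apart, and Lmna is a gene of fibroblasts, the feeder cells of these cultures. On their brightest probe sets all 19 expressed fibroblast markers were lower on the null-labelled array. Of them 17 were lower by at least 2-fold, beside 11.9% of all expressed genes. Their median difference was -2.07 log2 units, with a range from -2.92 (Col1a1) to -0.51 (Sparc). Their summed level was 17.09 on the wild-type-labelled array and 15.59 on the null-labelled array, as log2 of the sum, and all 19 were above the filter on both arrays. Lmna lay inside that range: 15 of the 19 markers were farther below 0 and 4 were closer to it. That place depends on the probe set. Of the 4, Col1a2 and Col3a1 reached -2.65 and -2.36 on other probe sets. Pdgfra ran from -0.90 to -0.28 and Sparc from -0.72 to 0.16. Of the 15, Pdgfrb had -1.42 on its other probe set. Of 12 expressed macrophage markers all were lower and 11 by at least 2-fold, with a median of -2.08, a range from -2.77 to -0.13 and a summed level of 13.96 and 12.21. On the null-labelled array 10 of these 12 were above the filter, while Itgam and Ptprc met it on the wild-type-labelled array alone, and a 13th marker was below it on both arrays. The part of fibroblasts and macrophages in the difference of Lmna was not tested.

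Lbr (Entrez gene 98386), which binds B-type lamins and heterochromatin protein HP1 and is also a sterol reductase, was the member past 2-fold in the other direction. Its only probe set, 1415829_at, had values of 11.38 and 12.44, a difference of 1.06 log2 units. That lay just inside the 2-fold rule: after centring on the median expressed gene it was 0.96, after removal of the trend with level 0.95, and relative to the median of the embryonic stem cell markers 0.31. Among expressed genes 504 (4.19%) were as far above 0 or farther. With only 1 probe set, no second reading of Lbr stands beside this value.

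Lmna and Lbr are the members past 2-fold, in opposite directions, and their promoter windows are shown for that reason. From RefSeq's promoter table (GRCm38.p6) starts were taken for 6 of the 7 members, 9 starts in all, with 2 for Lmna and 1 for Lbr. Lmnb1 was left out, since starts on its chromosome were not examined here. The windows are the 250 bases before each start, 5′ to 3′ on the gene's strand, which is the minus strand for both genes. Capitals mark matches on either strand to the CCAAT box (CCAAT), the GC box (GGGCGG) or the AP-1 site (TGANTCA), and matches to different motifs were counted separately where they overlapped.
Lbr, chr1:181842402-181842651: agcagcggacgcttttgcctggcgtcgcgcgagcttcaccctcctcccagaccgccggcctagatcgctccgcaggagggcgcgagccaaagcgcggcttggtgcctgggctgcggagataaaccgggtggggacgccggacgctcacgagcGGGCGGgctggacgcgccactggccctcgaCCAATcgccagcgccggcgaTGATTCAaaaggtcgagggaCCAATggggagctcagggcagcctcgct
Lmna, upstream start, chr3:88503353-88503602: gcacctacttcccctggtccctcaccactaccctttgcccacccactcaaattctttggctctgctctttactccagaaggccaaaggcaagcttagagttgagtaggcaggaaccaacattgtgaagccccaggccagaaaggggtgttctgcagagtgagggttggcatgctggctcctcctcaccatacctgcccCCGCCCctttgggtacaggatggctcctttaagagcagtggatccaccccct
Lmna, downstream start, chr3:88493313-88493562: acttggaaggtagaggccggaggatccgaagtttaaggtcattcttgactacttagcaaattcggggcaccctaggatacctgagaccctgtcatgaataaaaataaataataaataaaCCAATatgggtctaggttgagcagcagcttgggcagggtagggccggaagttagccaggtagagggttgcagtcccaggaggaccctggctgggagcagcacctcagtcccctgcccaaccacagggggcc

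The Lbr window ends at the annotated 5′ end of its gene, whereas both Lmna windows lie inside the annotated gene, and the outermost 5′ end of Lmna was not examined here. Their base composition is therefore a description of these starts alone. The Lbr window holds 31 CpG dinucleotides and 69.6% G and C, and the Lmna windows hold 1 and 4 CpGs with 56.4% and 52.8% G and C. Over all 32851 windows of the table the median was 6 CpGs and 52.4% G and C, and 95.4%, 18.8% and 44.4% of windows had as many CpGs as, or fewer than, Lbr and the upstream and downstream starts of Lmna. The Lbr window held 2 CCAAT boxes, 1 GC box and 1 AP-1 match, the upstream Lmna window 1 GC box and the downstream Lmna window 1 CCAAT box. Of all windows 33.8% held a CCAAT box, 32.7% a GC box and 6.75% an AP-1 match. The upstream start of Sun1 and the start of Sun2 had 30 and 31 CpGs. The differences of Sun1, Sun2 and Lbr on the arrays were 0.60, -0.07 and 1.06 log2 units. A link between CpG content and these differences was not tested. These matches describe letters in a window, and which start the cells used was not measured.

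The B-type lamin genes were both higher on the null-labelled array, though neither passed 2-fold on its brightest probe set. Lmnb1 (Entrez gene 16906) had values of 10.61 and 11.31 on 1423521_at, a difference of 0.70 log2 units. Its second probe set, 1423520_at, had values of 8.83 and 9.61, a difference of 0.79. The Lmnb1 probe sets differed from each other by less than the pooled SD between probe sets of 0.33.

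Lmnb2 (Entrez gene 16907) was also higher on both of its probe sets. On 1448531_at it had 7.71 on the wild-type-labelled array and 8.56 on the null-labelled array, a difference of 0.85 log2 units. On 1451849_a_at, which was below the filter on the wild-type-labelled array, it had 5.13 and 6.31, a difference of 1.18 or 2.26-fold. That probe set met the filter only where it was high, and the other 3 probe sets of the B-type lamins were 1.63-fold to 1.80-fold higher. Relative to the median of the embryonic stem cell markers, a scaling that lowers every difference by 0.75, Lmnb1 was at -0.05 and Lmnb2 at 0.10.

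A change of one lamina gene relative to another on the same array does not depend on a shift of all genes. The log2 ratio of Lmna to Lmnb1 differed between the arrays by -2.24, or 4.74-fold lower on the null-labelled array, and over the 6 pairs of probe sets above the filter on both arrays it was lower by 4.74-fold to 6.73-fold. Against Lmnb2 the change was -2.39 log2 units, or 5.24-fold, and against Lbr -2.60, or 6.08-fold with a range of 6.08-fold to 8.16-fold over 3 pairs. By contrast Lmnb1 differed from Lmnb2 by -0.15 and from Lbr by -0.36 log2 units. The probe sets that met the filter on 1 array alone were left out of these pairs, since the filter itself favours their direction.

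**Figure D2:**
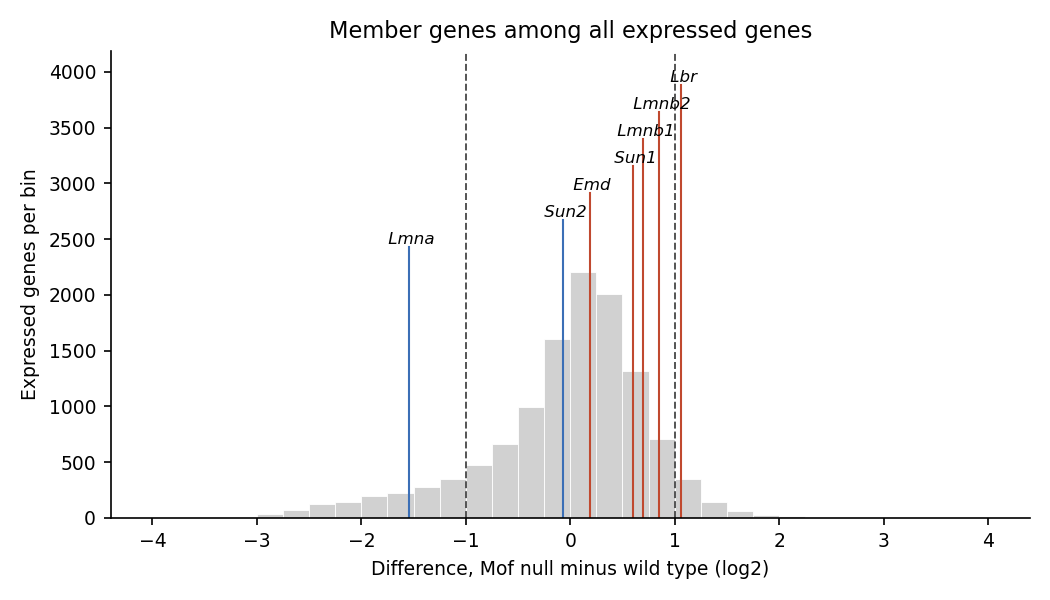
Number of expressed genes (y axis) per bin of the difference Mof null minus wild type (x axis, log2, bins of 0.25, values beyond 4 in the outer bins), with a vertical line for the brightest probe set of each member and dashed lines at 2-fold. Lmna at -1.54 lies beyond the lower line, Lbr at 1.06 just beyond the upper line, and Sun2 and Emd lie near 0.

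Among the membrane proteins that anchor the lamina, Sun1 and Sun2 did not move alike. Sun1 (Entrez gene 77053) had values of 10.26 and 10.85 on 1426666_a_at, a difference of 0.60 log2 units or 1.51-fold. On 1426667_a_at it had 8.09 and 9.03, a difference of 0.94. Relative to the embryonic stem cell markers the brighter probe set was at -0.15 and the other at 0.19, so the direction of Sun1 depends on that scaling.

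Sun2 (Entrez gene 223697) had values of 9.20 and 9.13 on 1433832_at, a difference of -0.07 log2 units. On 1439238_at it had 5.37 and 5.45, both below the filter, a difference of 0.08. Sun2 therefore had no settled direction on the deposited values, and it was at -0.82 relative to the embryonic stem cell markers. The log2 ratio of Sun2 to Sun1 was lower on the null-labelled array by 1.59-fold and 2.01-fold over the 2 pairs of expressed probe sets.

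Emd (Entrez gene 13726), the emerin gene on the X chromosome, differed little. Its only probe set, 1417357_at, had values of 10.27 and 10.46, a difference of 0.19 log2 units, which is below the pooled SD between probe sets. It stayed above 0 after centring (0.08) and removal of the trend with level (0.04), and was at -0.57 relative to the embryonic stem cell markers. Among expressed genes 43.7% were as far above 0 or farther.

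**Figure D3:**
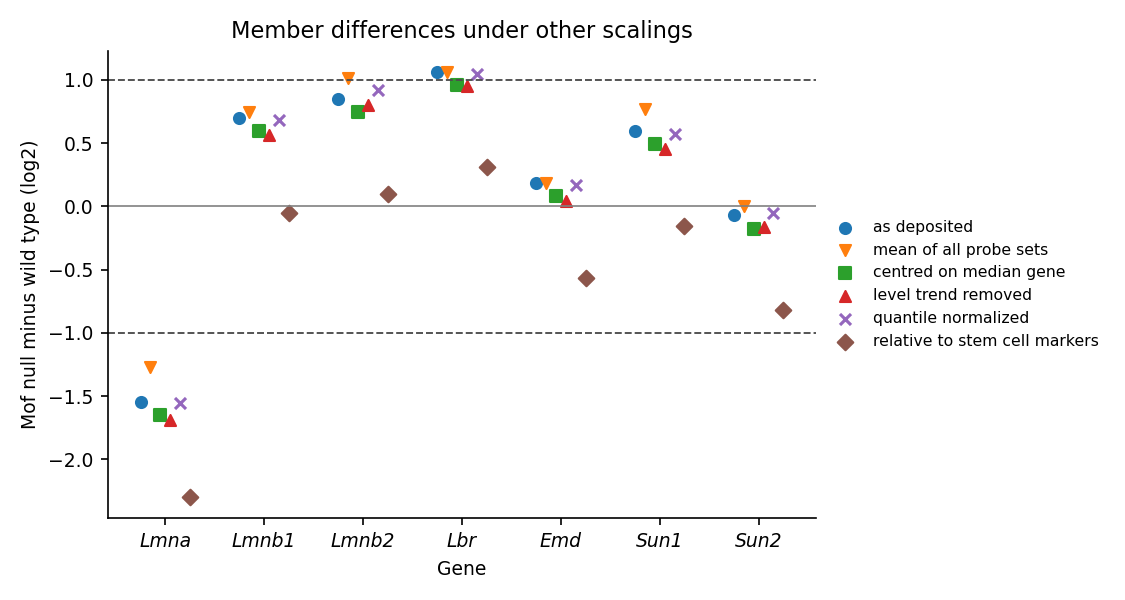
Difference Mof null minus wild type (y axis, log2) of each member gene (x axis) as deposited and under 5 other ways of computing it, 1 symbol each, with dashed lines at 2-fold. Lmna stays between -2.29 and -1.27, while Lmnb1 and Sun1 fall to -0.05 and -0.15 relative to the embryonic stem cell markers.

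The other genes of the nuclear envelope, taken from 6 lists with 52 expressed genes, mostly lay within 2-fold. Of these genes 34 were higher and 17 lower on the null-labelled array and 1 had equal values (56.7% of all expressed genes were higher). At least 2-fold differences were found in 5 of them (9.62%, against 17.0% of all expressed genes), 3 higher and 2 lower. Their median difference was 0.22 log2 units, beside 0.10 for all expressed genes.

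Genes of the LINC complex, which spans both nuclear membranes and holds Sun1 and Sun2, were listed together with its regulators and went both ways. Of 8 expressed genes 4 were higher and 4 lower, and 2 passed 2-fold, both lower (against 11.9% of all expressed genes). Tor1a, Tor1b, Tor1aip1 and Tor1aip2 are counted among them as regulators, and all of these but Tor1a were lower. Of the other expressed genes Syne2, Syne4 and Lrmp were higher and Syne1 lower. Under quantile normalization 1 higher and 1 lower gene passed it, and with the mean of all probe sets 0 did. The median was 0.06, and it was -0.31 under a stricter level filter and -0.10 without Lrmp, which met the filter on the null-labelled array alone. Syne1, which encodes nesprin-1, had values of 7.95 and 6.88, a difference of -1.07 log2 units. Syne2, which encodes nesprin-2, had values of 6.95 and 7.94, a difference of 0.99, just under 2-fold. The genes of nesprin-1 and nesprin-2 thus lay on opposite sides of 0, each read by 1 expressed probe set. Syne4 was at 0.77, with 0.73 to 0.77 over 2 probe sets. Tor1aip1, which encodes the lamina-associated protein LAP1 that activates torsin ATPases, had values of 9.85 and 8.82, a difference of -1.03, with -0.54 on a second probe set.

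For the LEM domain genes and Banf1, whose product joins LEM proteins to DNA, the median was 0.46. Of 6 expressed genes 5 were higher and none passed 2-fold, beside 56.7% and 17.0% of all expressed genes. Tmpo, which encodes the lamina-associated polypeptides LAP2, had values of 10.62 and 11.33, a difference of 0.71 log2 units with 0.51 to 0.82 over 4 probe sets. Ankle2 had 8.79 and 9.40, a difference of 0.61. Emd, at 0.19, was below both.

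Of 7 other genes of inner nuclear membrane proteins, 3 passed 2-fold upwards and none downwards (against 5.09% and 11.9% of all expressed genes), and the median was 0.43. After centring, or removal of the trend with level, 3 were higher and 1 lower, and with the mean of all probe sets 2 and 0. Relative to the embryonic stem cell markers 0 were higher and 2 lower, with a median of -0.32. Nemp2 had values of 6.75 and 8.25, 2.82-fold higher. Nrm, which encodes nurim, had 8.32 and 9.71, a difference of 1.39. Nemp1 had 7.24 and 8.46, a difference of 1.22. Each of these 3 genes was read by 1 expressed probe set. Tmem43, which encodes the emerin-binding protein LUMA, went the other way with 10.16 and 9.22, a difference of -0.94.

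The enzymes that mature prelamin A lay close to 0, while Lmna itself was at -1.54 log2 units. None of 5 passed 2-fold, where 17.0% of all expressed genes did, and their median was 0.00. The farthest were Rce1, the CAAX endoprotease, at 0.34 log2 units (8.90 and 9.24), and the farnesyltransferase subunit gene Fnta at 0.28 (11.39 and 11.68). Zmpste24, whose product makes the final cut of prelamin A, had 11.10 and 11.02, a difference of -0.08.

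Of 9 expressed chromatin and pore partners of the lamina 7 were higher and none passed 2-fold, beside 56.7% and 17.0% of all expressed genes. Their median was 0.21. The HP1 genes Cbx1 and Cbx5, whose products bind Lbr, were at 0.62 (10.73 and 11.36) and 0.56 (10.83 and 11.38) log2 units. Over 4 probe sets each, Cbx1 ran from 0.26 to 0.62 and Cbx5 from 0.23 to 0.56. The HP1 gene Cbx3 was at 0.21 (7.27 and 7.47). Of 17 expressed genes of envelope breakdown and resealing 11 were higher and none passed 2-fold, with a median of 0.05. The mitotic kinase genes Plk1 and Cdk1 were at 0.99 (9.69 and 10.68) and 0.90 (11.64 and 12.54).

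**Figure D4:**
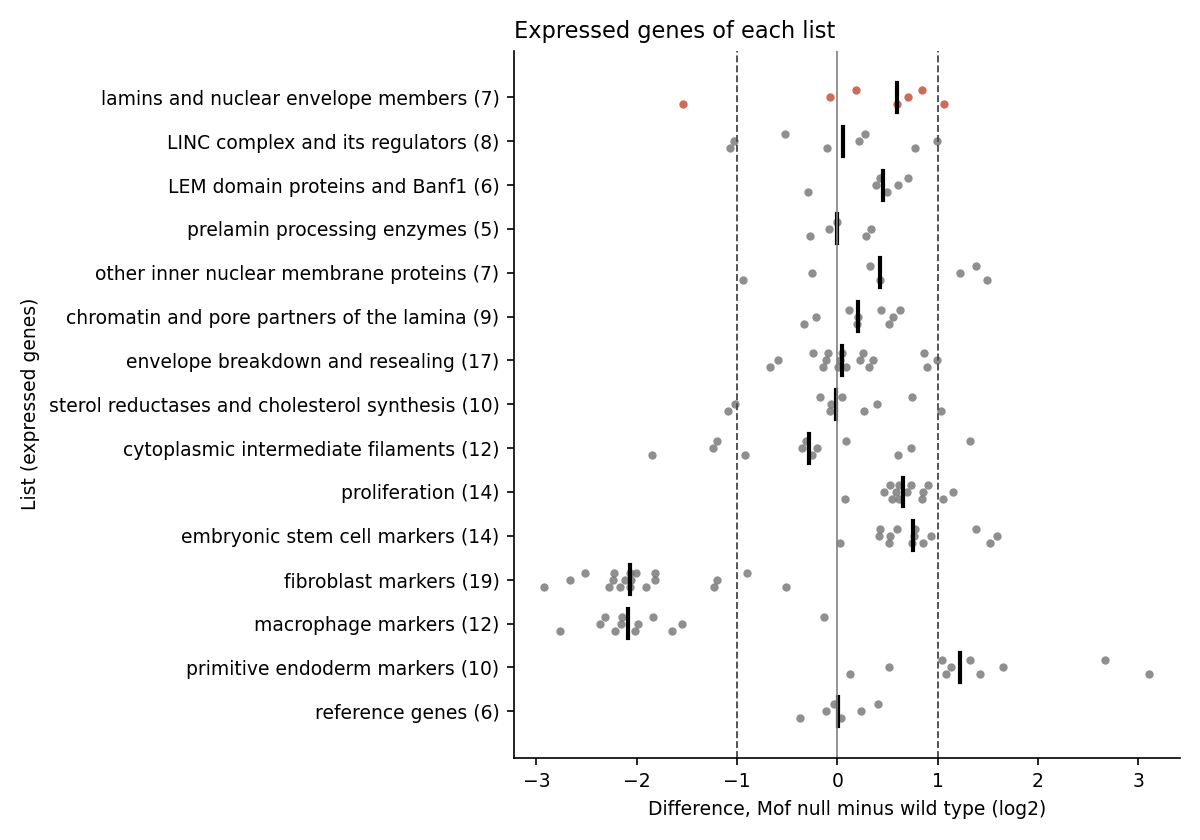
Difference Mof null minus wild type (x axis, log2) of each expressed gene (points) by list (y axis, number of expressed genes in brackets), with a bar at each list's median and dashed lines at 2-fold. The member genes, in red, spread from -1.54 to 1.06, while the fibroblast and macrophage lists have medians of -2.07 and -2.08 and the embryonic stem cell list one of 0.75.

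The members that were higher lay within the range of stem cell and proliferation genes on the same arrays. They also lay within the range of the primitive endoderm markers, from 0.13 to 3.11 log2 units. All 14 embryonic stem cell markers were higher and 3 passed 2-fold, beside 56.7% and 5.09% of all expressed genes. They had a median of 0.75, a range from 0.02 (Klf4) to 1.60 (Tcl1) and a summed level of 15.53 and 16.15. Lmnb1 at 0.70 was above 6 and below 8 of these markers, and Lbr at 1.06 was above 11 and below 3. All 14 proliferation genes were higher with a median of 0.66, and Mki67 (2.22-fold) and Bub1 (2.07-fold) passed 2-fold. Of those genes 8 were below Lmnb1 and 6 above, and 1 was above Lbr. The part of stem cell content, primitive endoderm content and proliferation in the differences of Lmnb1, Lmnb2, Lbr and Sun1 was not tested.

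For each member the 2 nearest genes by difference were sought among 149 expressed genes of the other lists, a likeness that rests on 1 difference between 2 arrays. Lmna at -1.54 was nearest to the macrophage markers Cd14 (-1.55) and Cd68 (-1.65). Lmnb1 was nearest to Tmpo (0.71) and the cyclin gene Ccna2 (0.69), and Lmnb2 to the cyclin gene Ccnb2 (0.85) and Dppa4 (0.85). The nearest to Lbr were Bub1 and Sox7, with gaps of 0.01 and 0.02 log2 units, and to Emd the genes Hdac3 (0.20) and Cbx3 (0.21). Sun1 was nearest to Esrrb and Nefl, each at 0.60, and Sun2 to the sterol genes Nsdhl and Msmo1, each at -0.07.

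The labelled cell type was checked against its markers: all 14 embryonic stem cell markers were above the level filter on both, as were all 19 expressed fibroblast markers. Reference genes had a median difference of 0.00 over 6 genes, from -0.37 (Actb) to 0.40 (Tbp).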

How the data were processed

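Biotin-labelled total RNA from 2 cultures of mouse embryonic stem cells, 1 per genotype, was hybridised to 1 array each. The deposited table holds log2 values that the authors made by RMA (affy, R 2.10.0), per the submitters' processing notes. RMA corrects background, quantile-normalizes arrays and summarises probes, so a shift of most transcripts in one direction cannot be seen. The scale was read from the values, and the labels do not say which arrays entered the RMA run. No column of per-sample values was left unused (0).

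Gene names came from the platform annotation: 34945 probe sets have 1 symbol and 1 Entrez ID, giving 18193 genes by the brightest probe set. The level filter was percentile 50 of all values. The named genes are all members, Kat8, of each other list at most 4 genes past 2-fold or else the 2 farthest from 0, and the 2 nearest genes of each member. Syne2, Tmem43, Zmpste24, Tm7sf2, Krt8, Krt18, Actb, Tbp and the ends of list ranges are outside the rule, having been picked once values were known. So are Syne4, Tor1a, Tor1b, Tor1aip2, Lrmp, Itgam, Nefm, Hnf4a, Col1a2, Col3a1, Pdgfra and Pdgfrb. Of 177 list entries 12 are not analysed here. The members and lists were chosen with earlier results of these data known. With 1 array per genotype there was no test, the number of arrays limits the precision, and leaving out an array was not possible. Counting was tested on simulated data. Alternatives were other gene summaries, filters, scalings and fold thresholds (1.5 and 4), with a lowess span of 0.3. Python 3.11.15, numpy 2.4.6, pandas 2.3.3, statsmodels 0.14.6 and matplotlib 3.10.9 were used.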

Additional observations from a re-analysis of the deposited data

How the results depend on the processing

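A value counted as unmoved when it stayed within 0.33 log2 units, the pooled SD between probe sets of a gene, and a count when it stayed within 1.5 times. No member difference or list median past 2-fold changed sign under the alternatives run. Relative to the median of the embryonic stem cell markers, a subtraction of 0.75 from every gene, Lmna was at -2.29, Lmnb1 at -0.050, Lmnb2 at 0.10, Lbr at 0.31, Emd at -0.57, Sun1 at -0.15 and Sun2 at -0.82. Then 0 members were at least 2-fold higher, and 60 expressed genes were higher and 3572 lower, so that 1.65% of the genes past 2-fold were higher, against 30.0% as deposited. By construction this scaling lowers every gene alike. Lbr left the 2-fold count (0 members higher) after centring and after removal of the trend with level. With the mean of all probe sets 2 members were at least 2-fold higher, Lmnb2 being at 1.01, and Sun2 was at 0.01. At 1.5-fold 4 members were higher, with 2084 expressed genes higher and 2303 lower. At 4-fold 0 members were higher and 0 lower, with 35 and 389 expressed genes. The filter at percentile 75 left 347 higher and 926 lower, since fewer genes were tested. Without probe sets ending in _s_at, _x_at or _a_at, 0 members were 2-fold lower: the only Lmna probe set left was below the filter, and Sun1 had none left, so neither gives a value. Quantile normalization and no filter moved no member value and no count of members or expressed genes. A filter met on both arrays, added after seeing the data, left 11050 genes with 499 higher and 1138 lower and moved no member value. Of the list and probe set values, 437 were unmoved and 88 moved. Among the moved values 44 arose under the stem cell marker scaling, whose shift of 0.75 exceeds 0.33 by construction. Another 11 and 12 arose at the 1.5-fold and 4-fold thresholds, and the cause of the rest was not tested.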

Other observations

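Lamins are nuclear members of the intermediate filament family, and its cytoplasmic members differed widely on the same arrays. Of 12 expressed genes 4 were higher and 8 lower on the null-labelled array, 1 and 3 of them at least 2-fold (against 5.09% and 11.9% of all expressed genes), with a median of -0.28 log2 units. Prph met the level filter on the null-labelled array alone and Nefm on the other alone, where each was high, and over the 10 genes that met it on both arrays 3 were higher and 7 lower, with 0 and 3 past 2-fold. Vim, the vimentin gene of mesenchymal cells, had values of 13.95 and 12.71, a difference of -1.24 with -1.24 to -1.15 over 3 probe sets. Krt7, a simple epithelial keratin, had 7.91 and 6.06, a difference of -1.85, and the muscle filament gene Des had 9.38 and 8.18, a difference of -1.20. Prph, a filament of peripheral neurons, had 5.73 and 7.06, a difference of 1.33, with 0.43 on a second probe set. The simple epithelial keratins Krt8 and Krt18 were at 0.08 and -0.35. The fibroblast marker median of -2.07 applies to the same arrays, and its part in these differences was not tested.

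Lbr is also a sterol reductase, and genes of cholesterol synthesis did not share its direction as a group. Of 10 expressed genes 5 were higher and 5 lower, with a median of -0.01 log2 units. Tm7sf2, which encodes the other sterol C14 reductase, had values of 7.81 and 8.55, a difference of 0.74. Dhcr7 had 9.13 and 10.17, a difference of 1.04, whereas Hsd17b7 had 10.02 and 8.92, a difference of -1.09, and Sc5d had 10.98 and 9.97, a difference of -1.02.

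Primitive endoderm markers had higher values on the null-labelled array in all 10 expressed genes, 8 of them at least 2-fold (against 5.09% of all expressed genes). Their median was 1.23 and their summed level 12.27 and 13.68. Hnf4a met the level filter on the null-labelled array alone, and without it 9 of 9 were higher and 7 passed 2-fold. Amn and Cubn, the parts of an endocytic receptor of visceral endoderm, led at 3.11 and 2.66, followed by Lama1 at 1.65 and Sox17 at 1.43.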
